A study of Mus musculus with 2 samples.

Results

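The genes of the core cell cycle machinery were examined in endothelial cells sorted from the embryonic mouse kidney. They are the cyclins, the cyclin-dependent kinases (CDKs), the CDK inhibitors, the E2F transcription factors and the retinoblastoma family. They were found by gene symbol in the array annotation, with no use of their values. The patterns taken were cyclins A to L, T1 and T2, the kinases named Cdk and a number, the inhibitors Cdkn1, Cdkn2 and Cdkn3 with any letter, E2f1 to E2f8, and Rb1, Rbl1 and Rbl2. This gave 58 of the 18193 genes that have a probe set assigned to 1 gene, and 134 of the 34945 such probe sets.

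Both arrays of the series belong to 1 group, so there is no contrast between conditions, no test was run and no p-value is given. Each array holds RNA of GFP-positive cells from CD-1 embryos at E15.5 (Theiler stage 23) that carry the transgene Tg(TIE2GFP)287Sato, in which the Tie2 promoter drives GFP. Tie2, the product of Tek, is a receptor of endothelial cells, and some blood cells also use its promoter. A sample was a pool of about 5 to 10 kidneys, and its RNA went through 2 rounds of amplification. The samples are numbered 1 and 2, nothing in the labels ties them to separate litters, and their spread may therefore be technical in part. Their titles name Flk1 and their source name the renal artery and vein, whereas the reporter is Tie2 and the protocol dissociates the whole kidney.

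Cyclins are a family of proteins, many of which rise and fall in level through the cell cycle, and most activate a partner kinase. D cyclins with Cdk4 or Cdk6 respond to growth signals and phosphorylate the retinoblastoma proteins, which then release E2F factors. E2F factors switch on genes of DNA synthesis, including cyclins E and A, which act with Cdk2 in S phase, and B cyclins with Cdk1 drive mitosis. Inhibitors of the Cip/Kip and Ink4 families hold the kinases back. Embryonic endothelium proliferates as vessels grow, while most endothelium of the adult rests.

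Values are intensities in arbitrary units, replicate 1 first and replicate 2 second. A gene with several probe sets is given by the one whose log2 intensity was highest on average. Background was the 95th percentile of 86 probe sets for odorant, vomeronasal and taste receptors, 198.94 in replicate 1 and 203.87 in replicate 2. Above background means over both limits. A difference is log2 of replicate 1 minus log2 of replicate 2, after an offset of -0.014 between the arrays was removed, and a fold is computed from it. Levels of different genes are not set against each other, because probe sets differ in how strongly they bind. RNA from fewer cells and less RNA per cell cannot be told apart in pools.

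The identity of the sorted cells was checked first. All 12 pan-endothelial markers were above background (summed 164645 and 149596, median 0.17), 9 of them higher in replicate 1 and 3 in replicate 2. Among the 3 were Tek, at 15908 and 21499, and Kdr, which encodes Flk1, at 8939 and 12139. Markers of other cells were detected too. Of 11 renal stroma markers 10 were above background and all 10 were higher in replicate 2, with a median difference of -1.89, a range from -2.73 (Pdgfra) to -0.87 (Meis1), and a summed intensity of the whole list of 27609.8 and 91596. Foxd1, the factor that defines renal stroma, gave 775.4 and 1775. Of 7 mural markers 4 were above background (summed 6639.7 and 11360.3, median -0.63), of 10 macrophage markers 9 (71504 and 76439.8, -0.083), and of 8 erythroid markers 5 (58291 and 50750.4, 0.20). Of 8 nephron markers 3 passed (1547.5 and 2125, -0.60) and of 7 ureteric bud markers 4 (1956 and 2607, -0.32). Over all genes 61.2% were above background, so the mural, erythroid, nephron and ureteric bud counts lie near or below that share. Most of the erythroid sums came from Hbb-y (55397 and 48789). No marker was listed at 0. Whether RNA of these other cells is part of the values below was not tested.

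Promoters of 4 members show the sequence through which E2F and mitotic factors are known to act. They were chosen after the values were seen: Cdk1 and Ccnb2 encode the mitotic kinase and a cyclin partner, Cdk2 differed most between the pools, and E2f7 is an E2F factor that was nearly equal in them. Each sequence is from RefSeq (GRCm38.p6), is 280 bases long, and runs 5′ to 3′ on the strand of the gene, from 250 bases before the start to 30 bases from it on. Capitals mark matches, on either strand, to 3 motifs. The E2F motif was TTTCCCGC, TTTCGCGC, TTTGCCGC or TTTGGCGC, the cell cycle homology region (CHR) was TTTGAA, and the NF-Y motif was CCAAT. No matches overlap in these 4 sequences.
Cdk1, chr10:69352883-69353162, minus strand: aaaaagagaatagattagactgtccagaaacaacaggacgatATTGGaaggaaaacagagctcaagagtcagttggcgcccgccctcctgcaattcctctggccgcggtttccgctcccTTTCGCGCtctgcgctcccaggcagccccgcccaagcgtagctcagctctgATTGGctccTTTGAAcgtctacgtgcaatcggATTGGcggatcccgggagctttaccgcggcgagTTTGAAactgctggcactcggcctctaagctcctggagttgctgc
Ccnb2, chr9:70421525-70421804, minus strand: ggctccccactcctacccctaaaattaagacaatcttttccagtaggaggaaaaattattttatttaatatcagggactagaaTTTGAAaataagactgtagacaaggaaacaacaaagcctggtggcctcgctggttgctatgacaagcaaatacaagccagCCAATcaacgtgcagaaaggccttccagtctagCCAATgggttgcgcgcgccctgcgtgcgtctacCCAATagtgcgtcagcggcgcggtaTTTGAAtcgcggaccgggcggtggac
Cdk2, chr10:128705022-128705301, minus strand: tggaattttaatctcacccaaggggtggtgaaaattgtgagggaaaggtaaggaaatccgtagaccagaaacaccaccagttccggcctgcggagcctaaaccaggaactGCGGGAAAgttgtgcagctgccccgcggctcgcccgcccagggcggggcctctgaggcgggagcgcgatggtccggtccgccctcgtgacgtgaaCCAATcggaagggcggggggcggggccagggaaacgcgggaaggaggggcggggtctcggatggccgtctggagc
E2f7, chr10:110745189-110745468, plus strand: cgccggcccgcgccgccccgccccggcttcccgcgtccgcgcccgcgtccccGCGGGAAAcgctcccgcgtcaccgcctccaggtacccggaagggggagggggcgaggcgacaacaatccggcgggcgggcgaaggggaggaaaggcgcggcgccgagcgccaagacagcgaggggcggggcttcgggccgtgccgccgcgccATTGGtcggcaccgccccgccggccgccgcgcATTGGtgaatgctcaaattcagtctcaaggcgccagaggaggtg

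The mitotic pair had CHR and NF-Y matches together. This was not particular to the pair, since 8 members in all had both, and the share of all genes with both was not computed. The Cdk1 promoter held 1 E2F, 2 CHR and 3 NF-Y matches, with a CHR match from position -15 to -10, counted from 0 at the start. Ccnb2 held 2 CHR and 3 NF-Y matches and no E2F match, and 1 of its CHR matches lay just past the start, at 4 to 9. Cdk2 and E2f7 each held 1 E2F match and no CHR match. Of the 58 members 45 had a promoter in the table. An E2F match was found in 6 of them (13.3%; Cdk1, Cdk2, Cdkn2a, E2f3, E2f7 and Rbl1), against 2.45% of all 27025 genes with a promoter. A CHR match was found in 11 (24.4%; Ccnb2, Ccnf, Ccni, Cdk1, Cdk16, Cdkn2b, Cdkn3, E2f2, E2f3, E2f8 and Rbl2), against 19.5% of all genes, and an NF-Y match in 25 (55.6%), against 39.7%. A match describes these letters alone, and no binding was measured here.

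**Figure D1:**
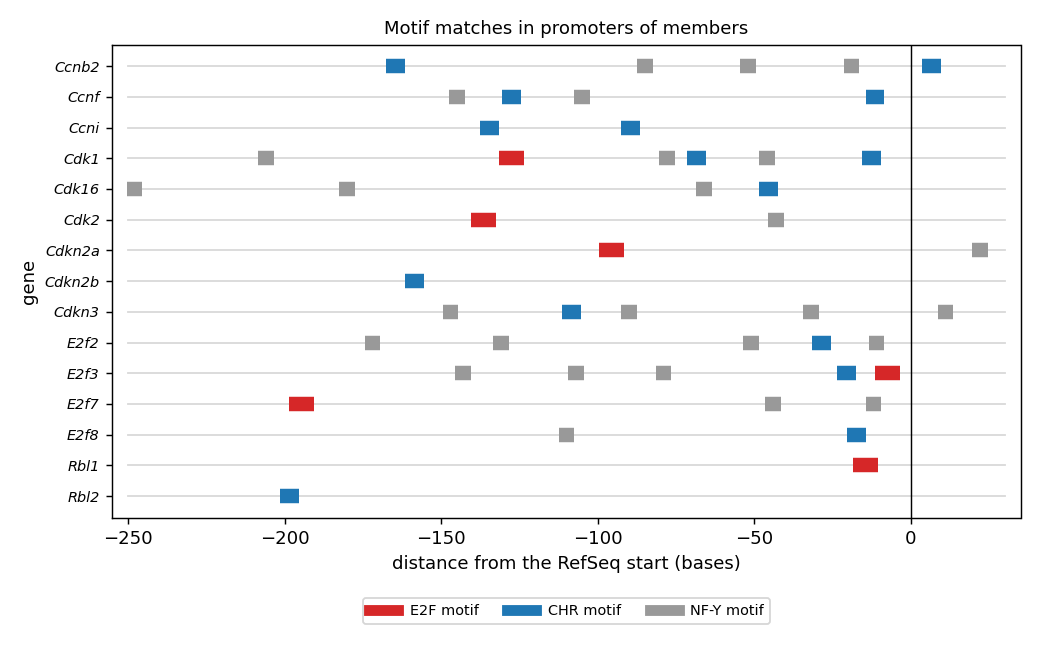
Positions of E2F (red), CHR (blue) and NF-Y (grey) motif matches in promoters of the members with an E2F or CHR match (rows), by distance in bases from the RefSeq start (x axis, start at the black line). Genes with more than 1 promoter in the table show the matches of all of them on 1 row, and the CHR match of Ccnb2 at 4 to 9 lies past the start.

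Most of the members were detected in these pools. Of the 58 members 52 (89.7%) were above background on both arrays, where 61.2% of all genes were. Of the other members, 5 were below the limit on both arrays, namely Ccna1, Ccnb3, Cdk20, Cdkn2a and Cdkn2b, and E2f4 passed in replicate 1 only. A gene with more probe sets has more chances to pass, so the share was also taken by their number. Among genes with 1 probe set, 15 of 21 members (71.4%) passed, against 44.6% of all such genes, and among genes with several, 37 of 37 (100%), against 78%. Counted by probe set, 99 of 134 (73.9%) were above background, against 55.1% of all.

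The plot of both intensities by role group gives every member. The groups hold 3 to 14 measured genes each. Their counts below stand beside 61.2% of all genes and 78% of those with several probe sets. Ccne2 was the member closest above a limit, at 198.98 in replicate 1, and Cdk18 was next, at 229.2 in replicate 2. The 2.67-fold difference of Cdk18 rests on that value, and the gene was no longer above background at the 99th percentile or at 2 times the limit. Cdkn1b was also near the limits (266.5 and 294.6). E2f4 was closest below, at 197.8 in replicate 2.

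**Figure D2:**
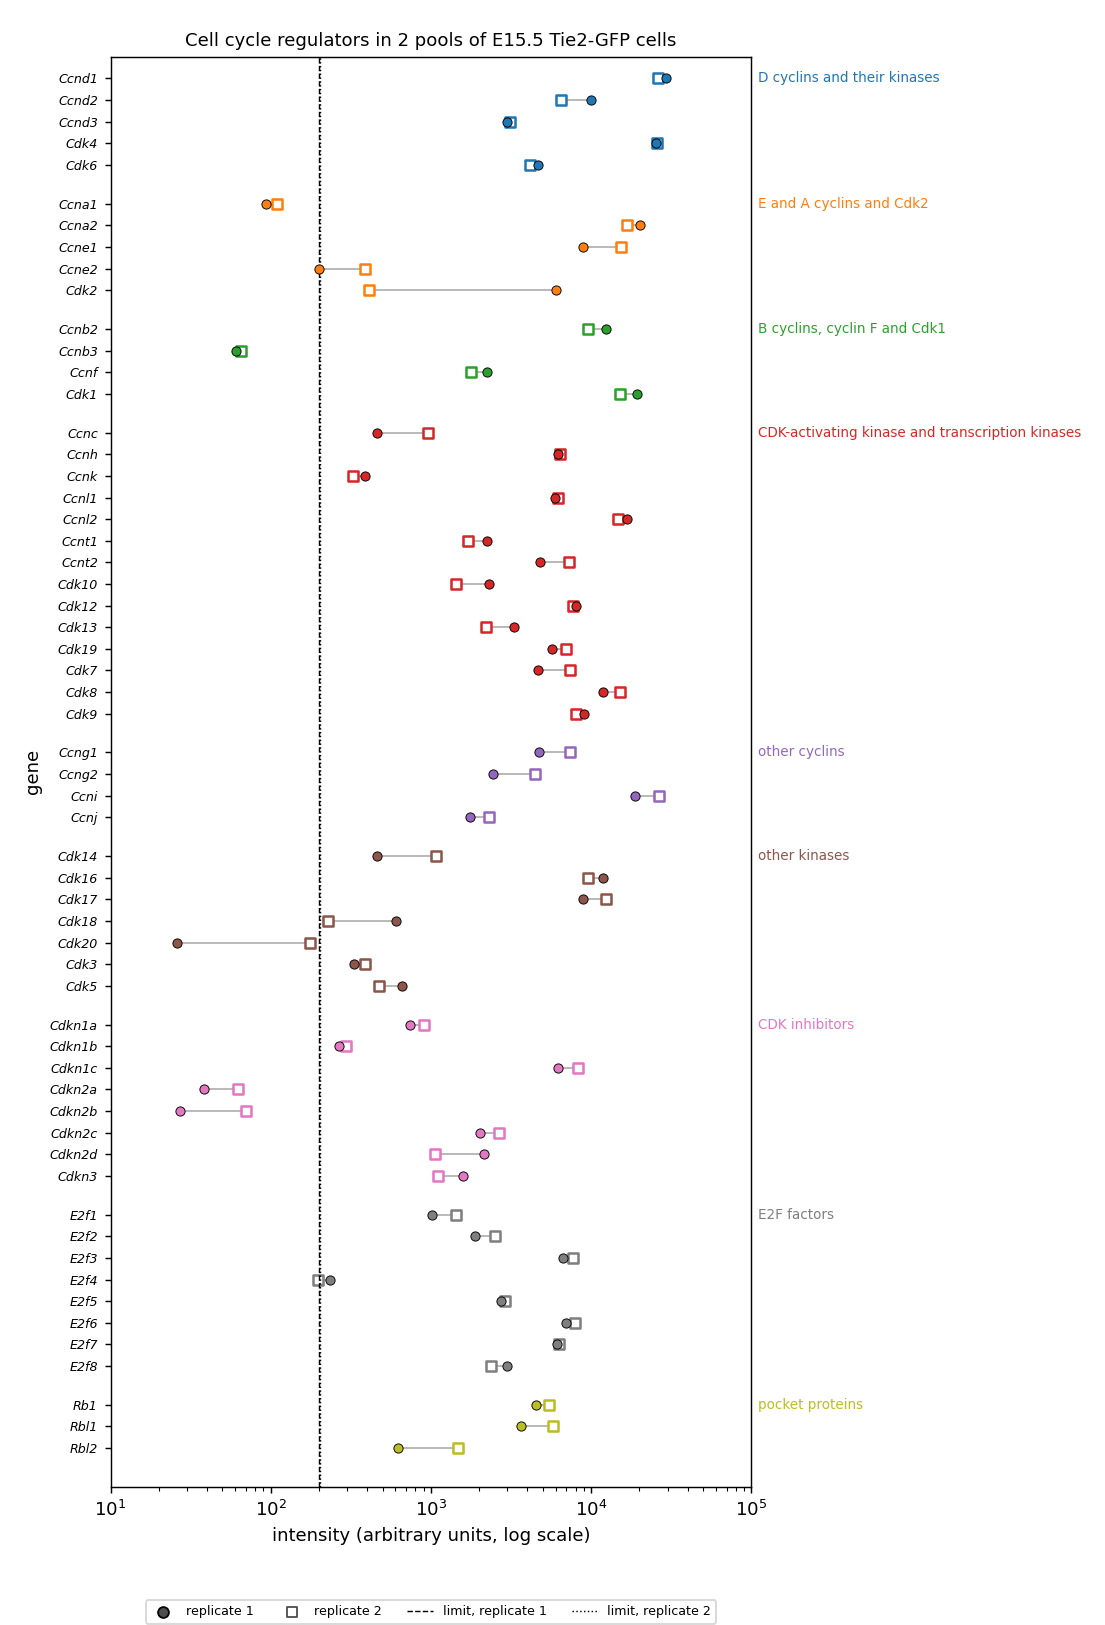
Intensity of each of the 58 members in replicate 1 (filled circles) and replicate 2 (open squares), in arbitrary units on a log scale, grouped and coloured by role, with the background limits of replicate 1 (dashed) and replicate 2 (dotted). Most pairs of points lie close together and right of the limits, Cdk2 has the widest gap among genes above them, and Ccna1, Ccnb3, Cdk20, Cdkn2a and Cdkn2b lie left of both.

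All 5 genes of the growth signal step were above background and none differed by over 2-fold. Cyclin D1, the D cyclin most often tied to growth factor signals, gave 29182 and 26033 for Ccnd1. Its partner Cdk4 gave 25276 and 25694, and the differences of its 3 probe sets lay between -0.0094 and 0.012. Ccnd2 gave 10023 and 6439.8, a difference of 0.65. The 2 pools thus lay close together for Ccnd1 and Cdk4 and further apart for Ccnd2. Ccnd3 gave 2974 and 3125, and Cdk6, the other kinase of this step, gave 4676 and 4171. The 7 probe sets of Ccnd2 were spread widely, from 153.1 to 10023. Of the 7, 5 were above background, and these differed by between -0.37 and 0.96.

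In the S phase group 4 of 5 genes were above background (61.2% of all genes were), and it holds the member with the widest difference. Cdk2, the kinase of cyclins E and A, gave 5994 in replicate 1 and 409.7 in replicate 2. This 14.8-fold difference was the largest toward replicate 1 of all 11127 genes above background. It rests on 1 probe set, and the other probe set of Cdk2 was far below the limits on both arrays (12.02 and 23.9).

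Neither cyclin partner of Cdk2 differed in that way. Ccna2, the A cyclin of dividing cells, gave 20296 and 16754, and its second probe set gave 17195 and 13417. Ccne1 gave 8925 and 15332, higher in replicate 2, but its other probe set gave 2029 and 1909.9. Ccne2 gave 199.0 and 385.2, so it was at the limit in replicate 1 and above it in replicate 2. Ccna1, the A cyclin known from germ cells, was below both limits (93.7 and 110.0).

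Of the mitotic group 4 genes were measured and 3 were above background (61.2% of all genes were), all 3 higher in replicate 1. Another B cyclin of the list was not analysed here, so the group is incomplete. Cdk1 gave 19398 and 15106 (a difference of 0.38), and Ccnb2 gave 12396 and 9488 (0.40). Ccnf, a cyclin that works as part of a ubiquitin ligase, gave 2249 and 1785 (0.35), and its second probe set, also above background, gave 1065 and 694.5 (0.63). Ccna2, which also acts at the entry to mitosis, differed by 0.29 in the same direction. Ccnb3 was below both limits (61.1 and 64.9). Apart from that second Ccnf probe set, these differences are smaller than the SD of 0.51 over all genes above background.

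Of 16 symbols listed for the CDK-activating kinase and the kinases that act on transcription, 14 were measured. All 14 were above background, with 7 higher in each pool. Probe sets above background differed in sign for Cdk7 (-1.16 to 0.46) and Cdk9 (-0.38 to 0.17). They also did for Cdk12 (-0.59 to 0.17), Cdk19 (-0.27 to 0.37) and Ccnl2. Cdk7 and its cyclin Ccnh form the kinase that activates other CDKs. Cdk7 gave 4659 and 7352 and Ccnh gave 6187 and 6363. The elongation kinase Cdk9 gave 8996 and 8079.6. Its cyclins leaned in different directions, with Ccnt1 at 2252 and 1710.3 and Ccnt2 at 4773 and 7286.

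Cdk12 and Cdk13, which pair with cyclin K, gave 7987 and 7714, and 3299 and 2206. Ccnk itself gave 386.9 and 328.3. Of the Mediator kinase module, Cdk8 gave 11903 and 15070.1 and Cdk19 gave 5690.2 and 6929, while their cyclin Ccnc gave 462.1 and 964.8, a 2.07-fold difference toward replicate 2. The Ccnc value is one of 5 probe sets, of which 2 were above background, and the second of these differed less (-0.46). The splicing cyclin Ccnl1, with 1 probe set, gave 5925 and 6229. The related Ccnl2 gave 16672 and 14742, but its 3 probe sets, all above background, differed by between -0.81 (470.5 and 831.1) and 0.36. Cdk10 gave 2293 and 1429.

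The remaining cyclins were all above background and all 4 were higher in replicate 2. Ccng1, a target of the p53 tumour suppressor, gave 4741 and 7352. Ccng2, known as a cyclin of cells that leave the cycle, gave 2437 and 4462. Ccni gave 18809.9 and 26613, and Ccnj gave 1755 and 2296. Their differences ran from -0.86 (Ccng2) to -0.37 (Ccnj), with a median of -0.55. The renal stroma markers lay on the same side, with a median of -1.89, and their part in these differences was not tested.

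Of 7 other kinases 6 were above background (61.2% of all genes were), and 2 of the 6 differed by over 2-fold, in opposite directions. Cdk18, a kinase of the PCTAIRE subfamily, gave 606.1 and 229.2, a 2.67-fold difference toward replicate 1. Cdk14, known for phosphorylating a Wnt co-receptor, gave 458.7 and 1071, a 2.31-fold difference toward replicate 2. The other 2 probe sets of Cdk14 were higher in replicate 1 (219.5 and 147.6, and 120.5 and 47.7) and neither passed on both arrays. The paralogues of Cdk18 differed less, with Cdk16 at 11905 and 9608 and Cdk17 at 8919 and 12395. Cdk5, best known from neurons, gave 657.6 and 472.4, and Cdk3 gave 329.2 and 387.6. Cdk20 was below both limits (25.8 and 174.8).

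Of 8 CDK inhibitors 6 were above background, where 61.2% of all genes and 78% of those with several probe sets were. Both genes of the Cdkn2a and Cdkn2b locus were far below the limits. Cdkn2a gave 38.4 and 62.1 and Cdkn2b gave 27.1 and 70.3. These Ink4 genes lie side by side on mouse chromosome 4 (Cdkn2a from 89274473 to 89294619 and Cdkn2b from 89306289 to 89311032, GRCm38.p6) and are known for rising in senescence. Each has 1 probe set here on the array.

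The other Ink4 genes were present. Cdkn2c gave 2021 and 2653, and Cdkn2d gave 2142 and 1061, a 2.04-fold difference toward replicate 1. Among the Cip/Kip genes, Cdkn1c, which is imprinted and restrains growth of the embryo, gave 6224 and 8242. Cdkn1a, the inhibitor induced by p53, gave 738.0 and 899.7, and its second probe set was below the limits (18.1 and 9.87). Cdkn1b gave 266.5 and 294.6, and its second probe set gave 160.7 and 232.8, over the limit in replicate 2 only. All 3 Cip/Kip genes were thus above background on both arrays, and their differences lay between -0.39 and -0.13. Cdkn3, a phosphatase of CDKs that dividing cells use, gave 1581 and 1114, a difference of 0.52.

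Of 8 E2F factors 7 were above background on both arrays, and no E2F factor differed by over 2-fold. Among the activators, E2f1 gave 1009 and 1439, E2f2 gave 1894 and 2513 and E2f3 gave 6659 and 7752. The repressors E2f7 (6138 and 6266) and E2f8 (2998 and 2370.0), which act without the partner protein DP, were present in both pools. E2f5 gave 2729 and 2899 and E2f6 gave 6919.7 and 7936. E2f4, the main repressor of resting cells, straddled the limit with 235.1 and 197.8 from its 1 probe set. Of the 7 above background 6 were higher in replicate 2, by 0.50 at most, and E2f8 was higher in replicate 1 (0.35). Other probe sets above background were higher in replicate 1 for E2f3 (0.96), E2f2 (0.25) and E2f5 (0.12). With the median of probe sets E2f3 and E2f5 were higher in replicate 1.

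The 3 pocket proteins were all above background and all higher in replicate 2. Rb1 gave 4513 and 5456. Rbl1, which is itself an E2F target, gave 3671 and 5804, although a second probe set went the other way (1381 and 1065). Rbl2, the member of the family known from resting cells, gave 618.8 and 1468, a 2.35-fold difference, and its other probe set passed on neither array (12.7 and 101.7). The differences ran from -1.23 (Rbl2) to -0.26 (Rb1), on the side of the renal stroma markers, whose part was not tested.

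Across the 52 members above background the pools differed little on balance. The median difference was -0.065, with 21 members higher in replicate 1 and 31 in replicate 2, against a median of 0.022 over all genes above background, of which 5797 were higher in replicate 1 and 5330 in replicate 2. By over 2-fold, 6 members (11.5%) differed, against 4.76% of all genes above background. When probe sets of a gene were replaced by their median, the count was 2 of 45 members, against 4.05% of all genes, so the higher share depends on the choice of probe set. Of the 6, Cdk2, Cdk18 and Cdkn2d were higher in replicate 1 (3 of 52, 5.77%, against 2.09% of all genes) and Ccnc, Cdk14 and Rbl2 in replicate 2 (3 of 52, 5.77%, against 2.67%). With 1 value per gene and pool there is no replicate check of any of them.

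**Figure D3:**
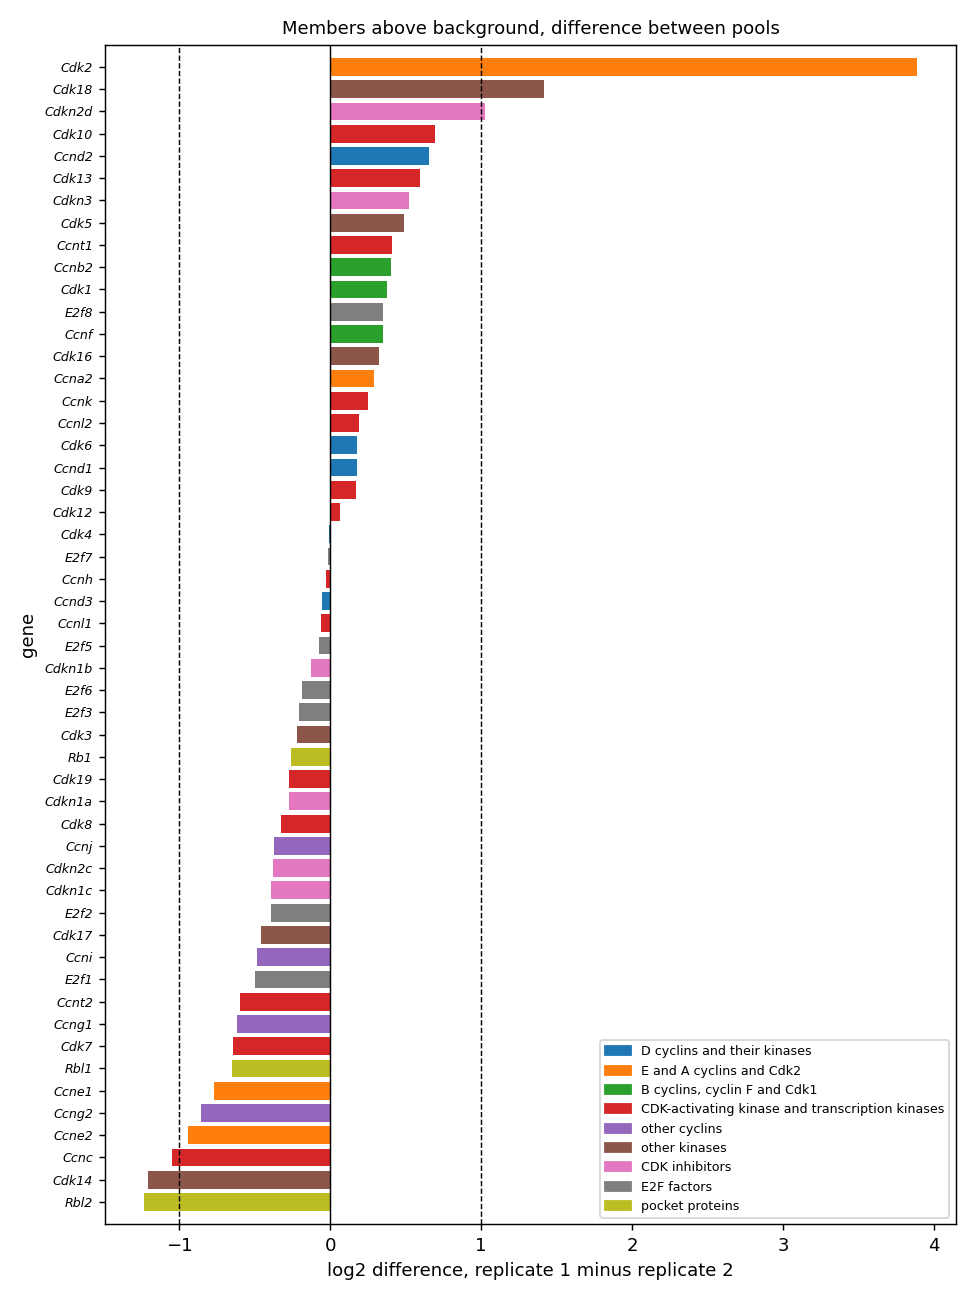
Difference between the pools, log2 of replicate 1 minus replicate 2 after centring (x axis), for each of the 52 members above background (bars, coloured by role), with 2-fold marked by dashed lines. Cdk2 stands out at 3.89 toward replicate 1, Rbl2 is lowest at -1.23, and all but 6 members lie within 2-fold.

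Probe sets of 1 gene often disagreed, in level and in direction. Of 37 members with several probe sets, 16 had all of them above background and 21 had only some. Of 28 members with at least 2 probe sets above background, 14 had differences of 1 sign and 14 of both signs. Of the 6 members over 2-fold apart, Cdk18 and Cdkn2d have 1 probe set each, and Cdk2, Cdk14 and Rbl2 have 1 that was above background. Ccnc is the only one of the 6 with a second probe set above background. In contrast, the 5 probe sets of Ccnt2 and the 3 of Ccng1 were all above background and all higher in replicate 2. Control probe sets at the 3′ and 5′ ends of Actb gave a 3′ to 5′ intensity ratio of 3.15 and 3.67. Whether weaker signal toward the 5′ end has a part in the disagreement of probe sets was not tested.

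**Figure D4:**
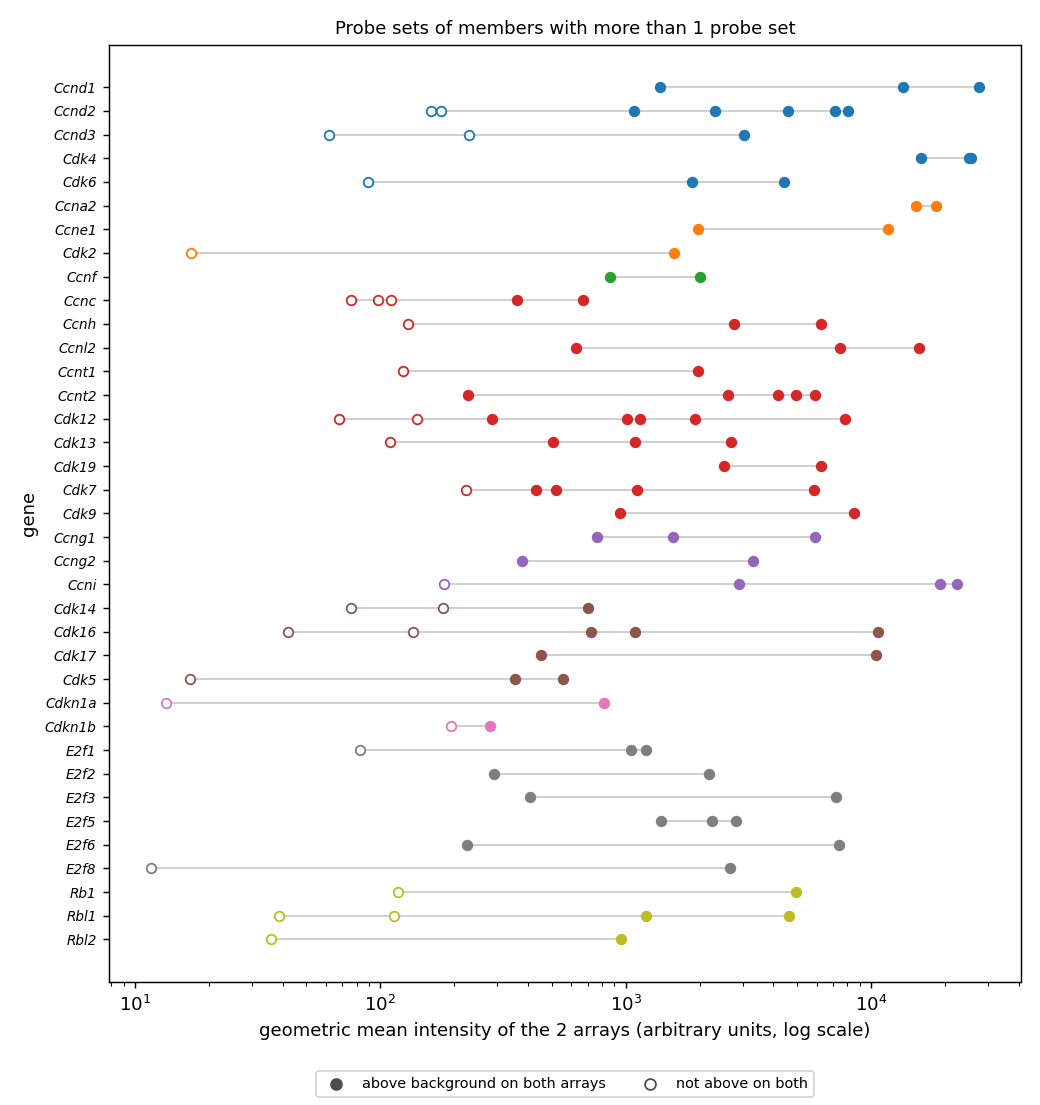
Geometric mean intensity over both arrays of each probe set (x axis, arbitrary units, log scale) for the 37 members with more than 1 probe set (rows, coloured by role). Filled points were above background on both arrays and open points were not, and genes such as Cdk2, E2f8 and Rbl2 have 1 point of each kind.

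Genes that work with the members were mostly detected too, where 61.2% of all genes and 78% of those with several probe sets were. Of 20 CDK regulators all 20 were above background, with Cks1b at 49163 and 51018, Cks2 at 30247 and 23291, and the activating phosphatases Cdc25a at 3932 and 4995 and Cdc25b at 1568 and 1663. Cdk2ap2, which encodes a Cdk2-associated protein, was the 1 regulator over 2-fold apart (992.0 and 479.5, a difference of 1.06 toward replicate 1), and Wee1, the kinase that inhibits Cdk1, was lowest (5892 and 8957, -0.59). In the list of E2F partners and subunits of the DREAM complex, through which pocket proteins silence cell cycle genes, 8 of 10 passed. This is close to the 78% of all genes with several probe sets. Tfdp1 gave 13430.1 and 13783, Tfdp2 gave 2840.4 and 3042 and Lin9 gave 437.2 and 770.6. Lin37 (293.6 and 162.1) passed in replicate 1 only and Lin52 (100.7 and 154.0) on neither array. Foxm1, a factor of mitotic genes, differed most toward replicate 1 (1309 and 901.9).

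Target genes of the E2F factors and of the mitotic programme were complete among those measured. All 20 replication genes were above background, where 61.2% of all genes and 78% of those with several probe sets were. Of the 20, 10 were higher in each pool, with a median difference of 0.0028. The helicase subunits Mcm2 (13462 and 7456), Mcm3 (21232 and 15730.5), Mcm4 (27557 and 26924) and Mcm5 (29892 and 31585) were among them, with Mcm2 furthest toward replicate 1 (0.87) and Gins1 toward replicate 2 (-0.67). All 18 mitotic genes were above background, 13 of them higher in replicate 1, with a median of 0.12. Mki67 gave 40060.1 and 39722, Top2a gave 36676 and 33421, Plk1 gave 2766 and 4513 and Aurka gave 6594 and 4673. Ube2c was furthest toward replicate 1 (0.76) and Plk1 toward replicate 2 (-0.69), and no gene of either list differed by over 2-fold.

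The lists that bear on the inhibitors and the transcription kinases were also mostly above background. Of all genes 61.2% were, and of those with several probe sets 78%, which is close to the share in the p53 list. Of 10 p53 pathway genes 8 passed, with Mdm2 at 2165 and 1968, Mdm4 at 5603 and 6263 and Bbc3 at 399.6 and 396.4. Gadd45a passed in replicate 2 only (139.0 and 469.9) and Sesn2 on neither array (188.2 and 130.9), and Btg2 was furthest toward replicate 2 (-0.60). Of the partners of the transcription kinases 10 of 10 passed, with Hexim1, the inhibitor of Cdk9, at 3139 and 3700.1, Larp7 at 8157 and 7498, Aff4 at 4072 and 5710 and Med1 at 5385 and 7430. Polr2a, the large subunit of RNA polymerase II, differed most toward replicate 1 (0.69) and Aff4 toward replicate 2 (-0.47). Of 10 genes listed for growth signals to the D cyclins or for control of these cyclins, 9 passed. Myc gave 9794 and 5069, Mycn 2015 and 1981, Gsk3b 3595 and 4342 and Ctnnb1 58601 and 64112, and Fosl1 did not pass (13.1 and 36.8).

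**Figure D5:**
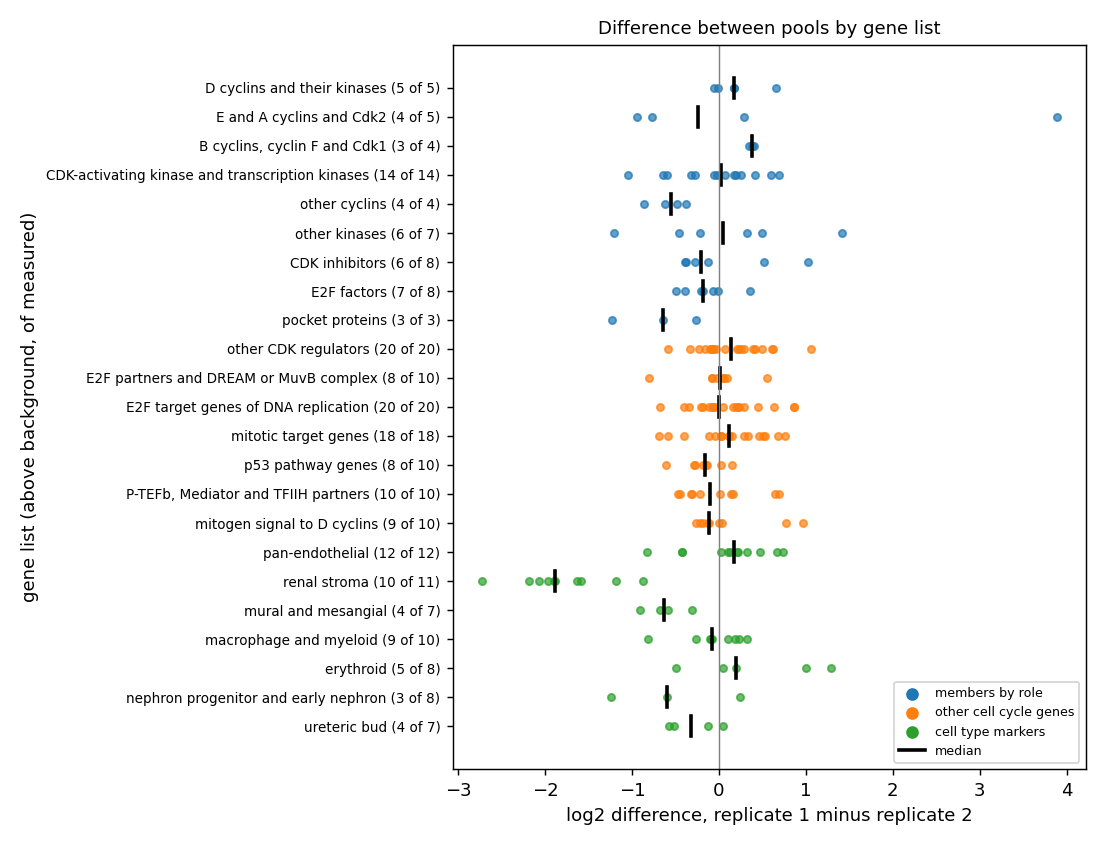
Difference between the pools, log2 of replicate 1 minus replicate 2 (x axis), of each gene above background (points) in the role groups of the members (blue), lists of other cell cycle genes (orange) and cell type markers (green), with list medians (black bars) and counts above background beside each name. The replication list is centred at 0.0028 and renal stroma at -1.89, while pocket proteins have a median of -0.65.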

How the data were processed

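The values are the intensity values that the authors deposited, 1 per probe set and array, not in log form. GCOS, Affymetrix software, is named without a version in the submitters' processing notes. The mean after trimming 2% at each end was 1500.01 on both arrays, so the arrays share a scale. The study's methods cover a different kind of array with 1 round of amplification, and were not applied here.

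Of 45101 probe sets, 34945 have 1 gene in the platform annotation, 932 several and 9160 none, and 64 are controls, which were left out of all gene counts. Gene IDs of all 58 members were found in the RefSeq gene table (GRCm38.p6), and 0 symbols changed. The symbol rule for members used no values. The rule, lists, motifs and alternatives were set with earlier results of these data known. The naming rule took every member and, of other lists, the first 4 measured genes, up to 2 genes whose call differed from that of most genes in it, and the gene with the largest difference in each direction among those above background. Cell type marker lists are instead summarised by counts, sums and medians, with few genes named. A 2-fold threshold was used for differences. Alternatives changed the limit, the probe set, the scaling and the fold, and used each array alone. An alternative left out probe sets with a suffix such as _a, _s or _x, which mark probes shared by several transcripts or sequences. Calculations were made in Python 3.11.15 with pandas 2.3.3 and tested on simulated data. With 2 arrays, their number limits the precision.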

Additional observations from a re-analysis of the deposited data

How the results depend on the processing

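The count of members above background lay between 45 and 53 under every alternative run, and between 52 and 53 on either array alone. It was 45 of 58 (77.6%, against 53.6% of all genes) when probe sets of a gene were replaced by their median, 47 of 58 (81%, against 52.5%) at 2 times the limit, 47 of 53 (88.7%, against 57.7%) with probe sets without a suffix, and 53 of 58 (91.4%, against 72.7%) at a flat limit of 100. E2f4 passed at that limit and at the 90th percentile. Ccne2, Cdk18 and Cdkn1b failed at the 99th percentile. Counts of the role groups and of the other cell cycle lists stayed within 1.5 times their value, and the median difference of the members ran from -0.13 to -0.053.

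The count of members over 2-fold apart depended on the choice of probe set and on the threshold. It was 2 with the median of probe sets (4.05% of all genes were over 2-fold apart), namely Cdk18 and Cdkn2d. Each of these has 1 probe set, so the median could not change it. The count was 16 at 1.5-fold (2254 of all 11127 genes) and 1 at 3-fold, where Cdk2 remained (110 of all genes). It was 4 with probe sets without a suffix (4.99% of all genes), where Cdk2 fell below background and Rbl2 had no probe set left. It was 5 at the 99th percentile (4.27%) and at 2 times the limit (3.73%), where Cdk18 was lost. The difference of Cdk2 was 1.46 with the median of probe sets and -0.97 with probe sets without a suffix, where the gene was below background. That of Cdk14 became 0.59 with the median of probe sets. With that median the sign also turned for Ccnd3 (0.48), E2f3 (0.38), Cdkn1a (0.31), E2f5 (0.12), Cdk19 (0.051), Cdk9 (-0.11), Cdk5 (-0.21), Cdk6 (-0.31) and Cdk12 (-0.32). With probe sets without a suffix it turned for E2f5 (0.12), Ccne1 (0.10), Cdk4 (0.012) and Cdk16 (-0.22). Neither quantile normalization nor leaving out the centring turned the sign of a member. For Cdk2, Cdk14, Ccnd3, Cdkn1a, Cdk5, Cdk6 and Cdk12 the median includes probe sets that were not above background on both arrays. With the median, Cdk2, Cdk14, Ccnd3 and Cdkn1a were themselves not above background on both arrays. Without suffixed probe sets, Cdk2 and Cdk16 are left with only probe sets of that kind. Quantile normalization and values without centring left the same 6 genes over 2-fold. No paired analysis was possible because the series has 1 group.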
